A study of Homo sapiens with 6 samples.

Results

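The genes described here are 9 cytokine genes measured by RNA sequencing in BxPC-3, a long-established cell line from human pancreatic cancer: IL1A, IL1B, IL1RN, IL18 and IL33 of the IL-1 family, IL6, LIF and IL11 of the IL-6 family, and TNF. They were taken by gene symbol from the 26255 symbols of each library, and all 9 had a row. The study compared 3 groups of 2 libraries each: Parent cells, which received no treatment, NC-1 cells, which received a negative control RNA, and miR-4711-5p cells, which received a double-stranded form of that microRNA. RNA was collected 36 h after transfection, and the question was which mRNAs change when this microRNA is put into the cells. All groups are the same cell line, and the study lists more than one negative control RNA without saying which of them NC-1 is. No source says that the 2 libraries of a group came from separate cultures, so the spread between them may be technical.

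The values are FPKM, fragments per kilobase of exon scaled to the size of the library, which can be compared between genes because gene length is divided out. Library sums ran from 493145 to 550772 FPKM. FPKM does not keep the read number, so the depth is unknown, but the spacing of the lowest values placed the depth of the miR-4711-5p libraries at 1.08 and 1.21 times that of Parent 1 and the other control libraries between 0.751 and 0.873 times. All 6 epithelial markers (keratins KRT7, KRT8, KRT18 and KRT19, EPCAM and CDH1) were at least 28.3 FPKM in every library. Of 10 leukocyte markers, 3 reached a mean of 1 FPKM: LAPTM5 (160 to 277 FPKM over the libraries), CD68 (11.3 to 15.3) and CD14 (0.897 to 2.18). CD74 was at most 1.09 FPKM, CD3E 0.684, CD37 0.139, CD53 0.132, CSF1R 0.0791 and PTPRC 0.0253 FPKM. TYROBP was 0 in all libraries. The summed leukocyte list was 266 to 270 FPKM in Parent, 290 to 296 in NC-1 and 175 to 176 in miR-4711-5p libraries, nearly all of it from LAPTM5, and its part in the cytokine results was not tested. Fibroblast markers summed to at most 2.47 FPKM and endothelial markers to at most 3.53 FPKM.

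The IL-1 family starts inflammation at epithelial surfaces. IL-1α and IL-1β, the products of IL1A and IL1B, bind the same receptor and signal through MYD88 and IRAK kinases to NF-κB, whereas the product of IL1RN occupies that receptor without signaling. IL-1β and IL-18 are made as precursors that caspase-1 cleaves, and IL-33 is a nuclear alarmin released from damaged cells. IL-6, LIF and IL-11 signal through the shared receptor chain gp130 (IL6ST) to JAK kinases and STAT3, and their genes are classical targets of IL-1 and TNF. Many cytokine mRNAs carry AU-rich elements in the 3′ UTR, through which RNA-binding proteins such as ZFP36 speed their decay.

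The microRNA sequence is shown because its seed, bases 2 to 8, sets which mRNAs it can pair with. The mature sequence below is from RefSeq (GRCh38.p14, chr1:59733269-59733291, minus strand), with the seed in capitals.
miR-4711-5p: uGCAUCAGgccagaagacaugag
None of the 9 genes had an 8mer (CTGATGCA), 7mer (CTGATGC or TGATGCA) or 6mer (TGATGC) match to this seed in any annotated 3′ UTR. Of 10588 tested genes with an annotated 3′ UTR, 17.1% had an 8mer or 7mer. IL1A had a 6mer in its coding sequence. The complementary strand of the duplex has its own seed, and 20.7% of the same genes had a site for it, among the cytokines IL1A with a 7mer and IL11 with an 8mer in the 3′ UTR. Both sites are printed with the match in capitals (GRCh37, minus strand, matches at chr2:113532581-113532587 and chr19:55876008-55876015).
IL1A: tgtaccatgtACATGAAgaagctaaat
IL11: atgatgtcctGACATGAAacagcaggct
A match is a description of the letters and not evidence of pairing.

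The densest stretches of the AU-rich pentamer ATTTA, the core of the sites that ZFP36 and related proteins bind, are shown for 4 of the mRNAs, because the cytokines differed widely in this feature. The 4 are examples and were not ranked by density. IL11, which is not shown, had 3 ATTTA in its densest stretch, beside 2 in IL6 and 2 in LIF. Each is 28 bases of 3′ UTR with every ATTTA in capitals (GRCh37; TNF chr6:31545779-31545806, plus strand; IL1B chr2:113587572-113587599, minus strand; IL6 chr7:22771325-22771352, plus strand; LIF chr22:30638553-30638580, minus strand).
TNF: ATTTAttATTTATTTAttATTTATTTAt
IL1B: cttccctATTTATTTATTTAtttgtttg
IL6: tttttaATTTAttaatATTTAaatatgt
LIF: tctATTTAttatgatatcctATTTAtat
The 3′ UTR of IL6 held 6 ATTTA in 425 bases, which is 14.1 per kb. TNF had 11.3 per kb, IL1B 9.84, IL11 5.54, IL1A 4.38, IL33 2.2 and LIF 2.19 per kb. IL18 and IL1RN, with 3′ UTRs of 336 and 1143 bases, had none. The median of all tested genes with a 3′ UTR was 1.72 per kb, and 73.4% had at least 1. The longer motif TTATTTATT, which contains ATTTA, was in 9.4% of tested genes and was found in IL1B, LIF, IL11 and TNF.

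In the Parent cells, IL1RN, IL1B and IL18 were the most abundant cytokine mRNAs, at 56.8 ± 2.21, 56.1 ± 2.48 and 55.7 ± 0.443 FPKM (mean ± SD, n = 2 libraries here and throughout), and they did not differ from each other beyond that spread. Each of these levels exceeded those of 86.4% to 86.7% of the genes tested. IL1A followed at 40.3 ± 1.89 FPKM, then LIF at 7.60 ± 0.672 and IL33 at 6.47 ± 0.0519 FPKM. IL11 was at 0.399 ± 0.0173, IL6 at 0.171 ± 0.155 and TNF at 0.0467 ± 0.0661 FPKM, and the libraries of IL6 and TNF overlapped. In the NC-1 cells the order was IL1B, IL1RN, IL1A, IL18, IL33 and LIF, followed by IL6, IL11 and TNF, of which IL6 overlapped with IL11 and IL11 with TNF. With miR-4711-5p it was IL1A, IL1B, IL18, IL1RN, LIF, IL6 and IL33, with the last pair overlapping, and then TNF and IL11. IL1RN was thus among the 3 highest in both controls and behind IL18 with miR-4711-5p, and IL6 went from below IL11 in Parent to the level of IL33.

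**Figure D1:**
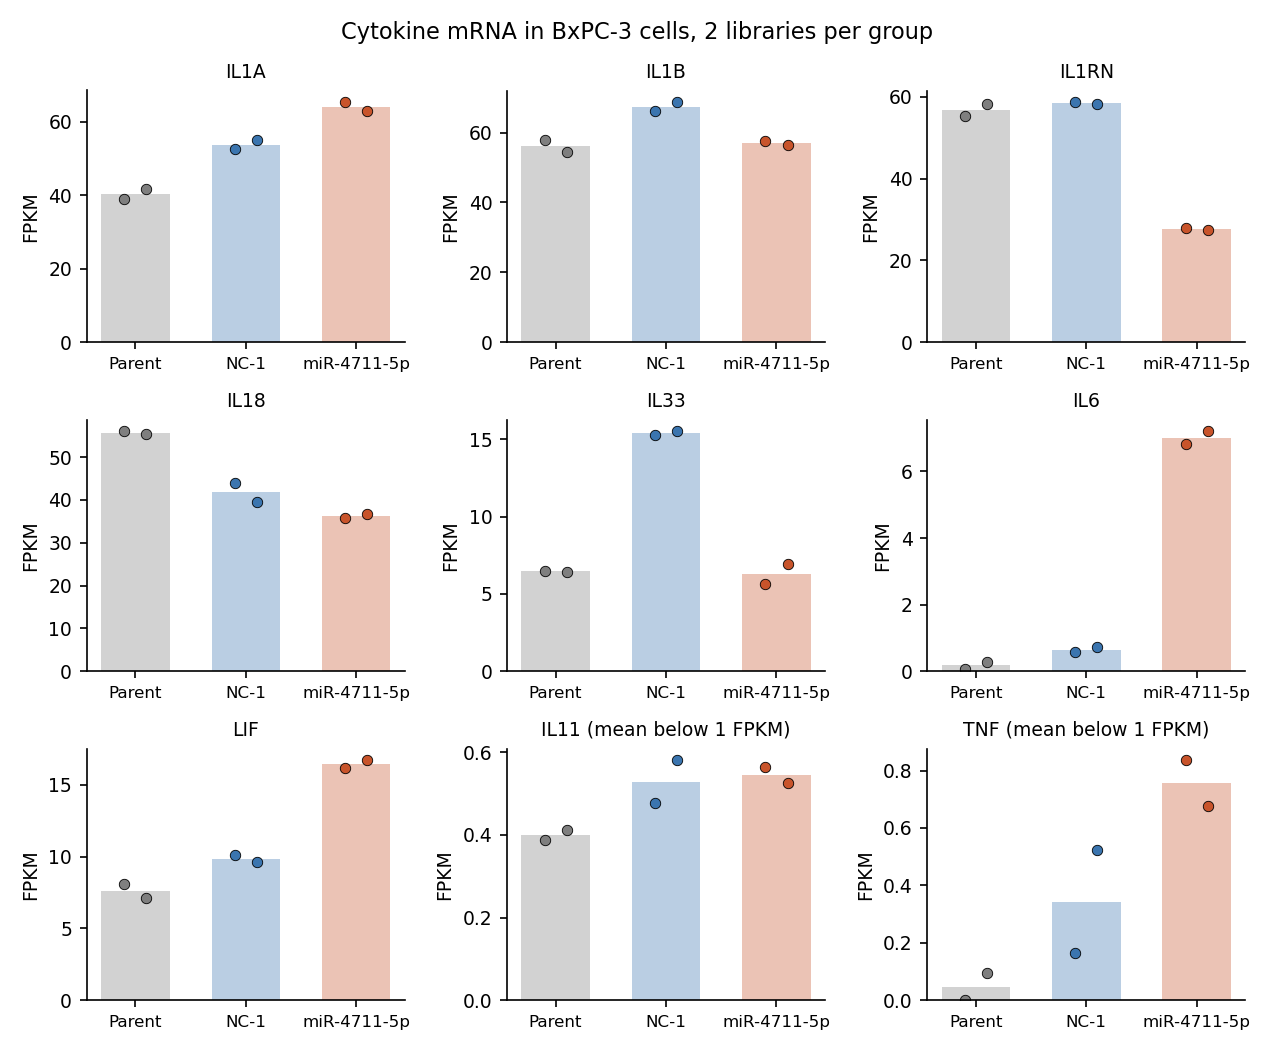
FPKM (vertical axis, from 0, with its own scale in each panel) of the 9 cytokine genes in Parent, NC-1 and miR-4711-5p cells. Points are the 2 libraries of a group and bars their mean; IL6 stood at 6.83 and 7.20 FPKM with miR-4711-5p and at most 0.714 FPKM in the control libraries, and IL1RN at 27.9 and 27.5 FPKM against at least 55.2 FPKM in the controls.

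The 6-library mean reached 1 FPKM for 7 of the 9 cytokine genes, which entered the test across 12040 genes (limma on log2(FPKM + 1), Benjamini-Hochberg adjusted p under 0.05). IL11 and TNF stayed below it. Against Parent, IL1A, IL6 and LIF were higher and IL1RN and IL18 lower with miR-4711-5p, which is 5 of 7, beside 43.4% of all genes tested (18.7% higher and 24.7% lower). Against NC-1 all 7 differed, 3 higher and 4 lower, beside 39.6% of all genes (18.4% higher and 21.2% lower). NC-1 itself differed from Parent in 6 of 7, 5 higher and 1 lower, beside 27.2% of all genes (12.1% higher and 15.1% lower). The direction against both controls was the same for IL1A, IL6 and LIF (higher) and for IL1RN and IL18 (lower). The median log2 fold change of the 7 genes was 0.02 against Parent, where that of all genes was -0.01, and -0.20 against NC-1, where that of all genes was 0.00. IL6 passed the filter only through the miR-4711-5p libraries, since its mean in the 4 control libraries was 0.407 FPKM. Its part in these counts is therefore not independent support. The 3 comparisons share libraries and are not independent of each other. In these bulk samples, fewer cells that make an mRNA and less of it per cell cannot be told apart.

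**Figure D2:**
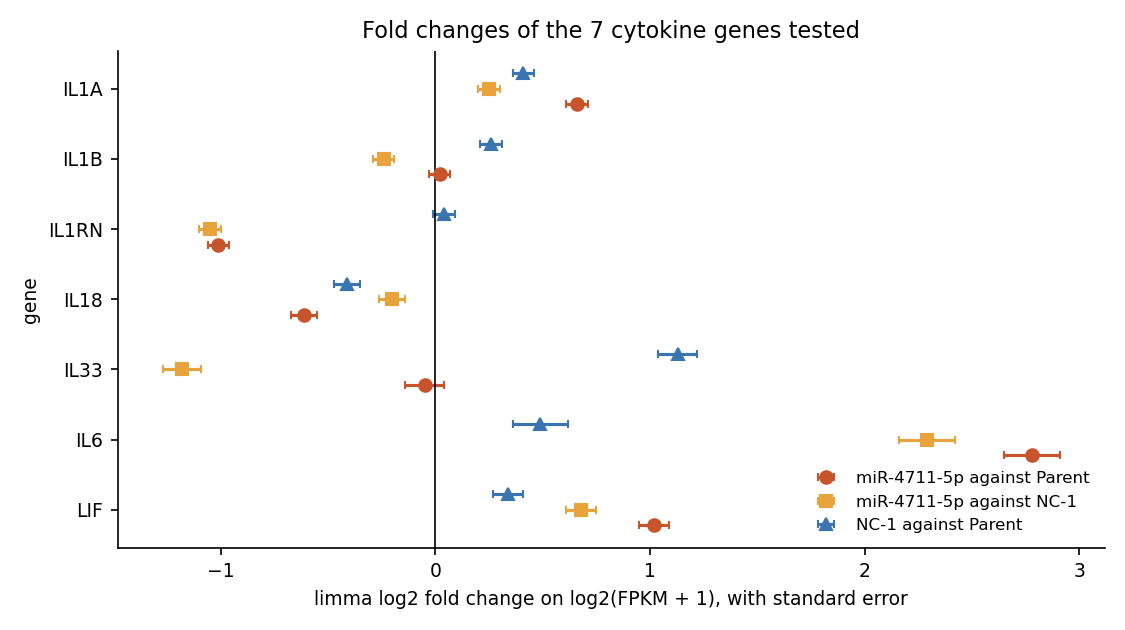
limma log2 fold change on the log2(FPKM + 1) scale (horizontal axis) of the 7 cytokine genes tested, for 3 comparisons shown by color and symbol, with bars for the standard error. IL6 at 2.78 and LIF at 1.02 lie to the right against Parent, IL1RN lies near -1 against both controls, and IL33 differs from 0 only where NC-1 enters the comparison.

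IL1RN, which encodes the IL-1 receptor antagonist (ENSG00000136689, GRCh37 chr2:113856892-113891593, plus strand), measured 55.2 and 58.3 FPKM in Parent, 58.6 and 58.2 in NC-1, and 27.9 and 27.5 in miR-4711-5p libraries. The miR-4711-5p libraries lay below all 4 controls, while Parent and NC-1 overlapped. The level was 2.05-fold lower than in Parent (log2 fold change -1.01, SE 0.05, adjusted p = 1.01e-05 by limma) and 2.11-fold lower than in NC-1 (log2 fold change -1.05, SE 0.05, adjusted p = 1.02e-05 by limma). It was the 163rd largest decrease of 12040 genes against Parent and the 172nd against NC-1. NC-1 and Parent differed by a log2 fold change of 0.04 (adjusted p = 0.557 by limma).

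IL1A (ENSG00000115008, GRCh37 chr2:113531502-113542070, minus strand), which encodes an agonist of the same receptor, measured 38.9 and 41.6 FPKM in Parent, 52.6 and 55.1 in NC-1, and 65.3 and 63.0 in miR-4711-5p libraries. The 3 groups did not overlap, with NC-1 between the others. The miR-4711-5p level was 1.59-fold that of Parent (log2 fold change 0.66, SE 0.05, adjusted p = 0.000102 by limma). The step from NC-1 was 1.19-fold (log2 fold change 0.25, SE 0.05, adjusted p = 0.00869 by limma), and the step from Parent to NC-1 was 1.34-fold (0.41, SE 0.05, adjusted p = 0.00287 by limma). The call against NC-1 was lost without NC-1 1 (adjusted p = 0.0504 by limma) or without miR-4711-5p 1 (adjusted p = 0.0691 by limma).

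IL1B (ENSG00000125538, GRCh37 chr2:113587328-113594393, minus strand), the second agonist, measured 57.8 and 54.3 FPKM in Parent, 66.1 and 68.6 in NC-1, and 57.5 and 56.5 in miR-4711-5p libraries. Parent and miR-4711-5p libraries overlapped, and both NC-1 libraries stood above the rest. The log2 fold change of miR-4711-5p was 0.02 against Parent (adjusted p = 0.736 by limma) and -0.24 against NC-1 (SE 0.05, adjusted p = 0.00802 by limma). NC-1 was 1.20-fold above Parent (log2 fold change 0.26, SE 0.05, adjusted p = 0.0101 by limma). The difference between miR-4711-5p and NC-1 was no longer called without miR-4711-5p 2 (adjusted p = 0.0588 by limma), and that between NC-1 and Parent without NC-1 2 (adjusted p = 0.0505 by limma).

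Antagonist and agonists were also set against each other within each library, since such a ratio does not depend on how a library was scaled. IL1RN divided by the sum of IL1A and IL1B was 0.571 and 0.608 in Parent, 0.493 and 0.471 in NC-1, and 0.227 and 0.230 in miR-4711-5p libraries. All 3 groups were apart, with miR-4711-5p lowest. The mean ratio with miR-4711-5p was 2.58-fold below that of Parent and 2.11-fold below that of NC-1. In an exact two-sided permutation test each of these gave p = 0.33, the smallest value that 2 libraries against 2 can reach. Against IL1B alone the mean ratio was 1.01 in Parent, 0.867 in NC-1 and 0.486 with miR-4711-5p, and against IL1A alone it was 1.41, 1.08 and 0.431. The balance of the agonists changed as well: IL1A divided by IL1B was 0.673 and 0.765 in Parent, 0.796 and 0.803 in NC-1, and 1.14 and 1.12 in miR-4711-5p libraries, so that IL1A exceeded IL1B in the miR-4711-5p libraries only. These are ratios of mRNA, and protein was not measured in these data.

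**Figure D3:**
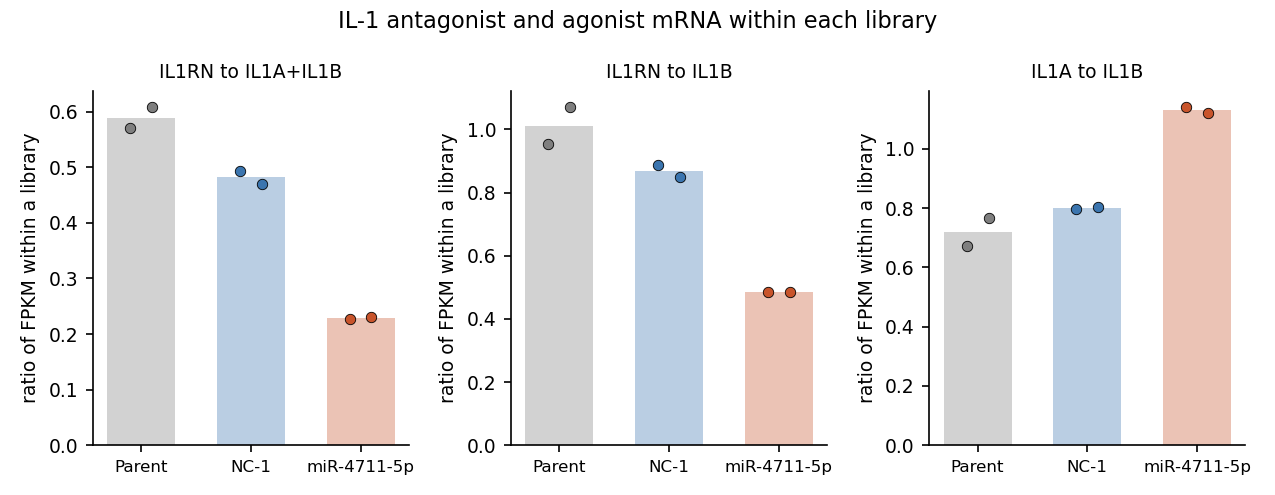
Ratios of FPKM within a library (vertical axes, from 0) in the 3 groups, with points for the 2 libraries and bars for their mean. The ratio of IL1RN to IL1A plus IL1B falls from 0.571 and 0.608 in Parent to 0.227 and 0.230 with miR-4711-5p, while that of IL1A to IL1B goes from 0.673 and 0.765 to 1.14 and 1.12.

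IL18 (ENSG00000150782, GRCh37 chr11:112013976-112034819, minus strand), whose product induces interferon-γ in lymphocytes, measured 56.0 and 55.4 FPKM in Parent, 44.0 and 39.6 in NC-1, and 35.7 and 36.7 in miR-4711-5p libraries. The groups did not overlap. The miR-4711-5p level was 1.54-fold below that of Parent (log2 fold change -0.61, SE 0.06, adjusted p = 0.000236 by limma), and NC-1 was also lower than Parent (-0.41, SE 0.06, adjusted p = 0.004 by limma). The smaller difference between miR-4711-5p and NC-1 (-0.20, SE 0.06, adjusted p = 0.0298 by limma) was not stable: it was lost without Parent 1, Parent 2, NC-1 1, miR-4711-5p 1 or miR-4711-5p 2, and over all alternatives its adjusted p by limma ran from 0.0148 to 0.148.

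IL33 (ENSG00000137033, GRCh37 chr9:6215786-6257983, plus strand) measured 6.51 and 6.43 FPKM in Parent, 15.3 and 15.5 in NC-1, and 5.62 and 6.90 in miR-4711-5p libraries. NC-1 stood apart, and Parent and miR-4711-5p overlapped. NC-1 was 2.38-fold above Parent (log2 fold change 1.13, SE 0.09, adjusted p = 0.000568 by limma), the 47th largest increase of 12040 genes in that comparison. miR-4711-5p was 2.46-fold below NC-1 (-1.18, SE 0.09, adjusted p = 8.45e-05 by limma) and differed from Parent by -0.05 (SE 0.09, adjusted p = 0.698 by limma). A comparison of miR-4711-5p with NC-1 alone therefore lists IL33 among the genes that fell, and a comparison with Parent does not. Its receptor gene IL1RL1, named here after its values were seen, was at 130 FPKM in Parent, 109 in NC-1 and 112 with miR-4711-5p.

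IL6 (ENSG00000136244, GRCh37 chr7:22765503-22771621, plus strand) measured 0.0612 and 0.280 FPKM in Parent, 0.571 and 0.714 in NC-1, and 6.83 and 7.20 in miR-4711-5p libraries. The 3 groups did not overlap, and the gap to the miR-4711-5p libraries was by far wider than the spread within any group. The ratio of mean FPKM was 41.1 against Parent and 10.9 against NC-1, and the former rests on a Parent level near 0. On the log2(FPKM + 1) scale, which understates the change of a low gene, it rose by 2.78 against Parent (SE 0.13, adjusted p = 1.06e-05 by limma) and by 2.29 against NC-1 (SE 0.13, adjusted p = 2.83e-05 by limma). These were the 14th and the 17th largest increases of 12040 genes. IL6 was among those genes only through the miR-4711-5p libraries, with a mean of 0.407 FPKM in the 4 control libraries. Its places and adjusted p values are therefore a description and not independent support. With a pseudocount of 0.1 FPKM the log2 fold change against Parent was 4.84 and against NC-1 3.27. The difference between NC-1 and Parent (0.49, SE 0.13, adjusted p = 0.0321 by limma) was lost without any one of Parent 1, NC-1 1, NC-1 2, miR-4711-5p 1 and miR-4711-5p 2, with adjusted p by limma from 0.0239 to 0.161 over all alternatives.

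LIF (ENSG00000128342, GRCh37 chr22:30636442-30642748, minus strand), which signals through LIFR and gp130, measured 8.08 and 7.13 FPKM in Parent, 10.1 and 9.64 in NC-1, and 16.2 and 16.7 in miR-4711-5p libraries. The groups did not overlap, and the miR-4711-5p libraries were the highest. LIF was 2.16-fold higher than in Parent (log2 fold change 1.02, SE 0.07, adjusted p = 4.95e-05 by limma) and 1.67-fold higher than in NC-1 (0.68, SE 0.07, adjusted p = 0.000362 by limma). The rise from Parent to NC-1 (0.34, SE 0.07, adjusted p = 0.0137 by limma) was lost without Parent 2, NC-1 1 or NC-1 2, with adjusted p by limma of 0.0552, 0.0801 and 0.0501.

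IL11 (ENSG00000095752, GRCh37 chr19:55875750-55881831, minus strand), the third ligand that uses gp130, stayed low, at 0.387 and 0.411 FPKM in Parent, 0.478 and 0.580 in NC-1, and 0.565 and 0.526 in miR-4711-5p libraries. NC-1 and miR-4711-5p overlapped, and both lay above Parent. TNF (ENSG00000232810, GRCh37 chr6:31543342-31546113, plus strand) was listed at 0 and 0.0935 FPKM in Parent, 0.163 and 0.524 in NC-1, and 0.835 and 0.676 in miR-4711-5p libraries. The groups of TNF did not overlap, and no fold is given against a group with a library at 0. With the filter lowered to a mean of 0.1 FPKM, TNF differed from Parent by 0.75 on the log2(FPKM + 1) scale (adjusted p = 0.00833 by limma) and from NC-1 by 0.40 (adjusted p = 0.0797 by limma), and IL11 by 0.14 (adjusted p = 0.253 by limma) and 0.02 (adjusted p = 0.91 by limma). Over all 9 genes, the libraries did not overlap for 7 between miR-4711-5p and Parent (74.2% of all genes tested), for 8 between miR-4711-5p and NC-1 (72.4%) and for 8 between NC-1 and Parent (65.5%).

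Some loci overlap other annotated genes on the opposite strand: IL6 overlaps STEAP1B and IL6-AS1, LIF overlaps LIF-AS1 and LIF-AS2, and IL18 overlaps ENSG00000255292. The libraries were made with a stranded kit, but the strand setting of the counting is not given in the sources used here, so reads from these partners may not have been separated.

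Promoter windows of 300 bases, from 250 before to 50 after a transcription start, were read from RefSeq (GRCh38.p14) for 7 of the 9 genes in 11 windows. LIF and IL18 had no entry. The windows of IL6 and IL1RN are shown in part because IL6 had the largest rise and IL1RN the largest fall among the cytokine genes called in the same direction against both controls. The capitals mark an NF-κB motif in IL6, 73 to 64 bases before the start (chr7:22727117-22727146, plus strand), and an interferon-stimulated response element, GAAANNGAAA, in IL1RN, 122 to 113 bases before one of its starts (chr2:113127357-113127386, plus strand).
IL6: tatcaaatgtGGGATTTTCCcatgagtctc
IL1RN: caatgaagggGAAATAGAAAtcttaatttt
Searched on both strands, the NF-κB motif was in 5.91% and the response element in 3.57% of 35116 promoter windows. The AP-1 motif TGANTCA (7.71% of windows) was found in IL1A, IL1RN and IL11, and the STAT motif TTCNNNGAA (7.66%) in IL1B and IL33. In windows of tested genes the 4 shares were 6.84%, 2.9%, 5.41% and 6.2%, in the same order. All shares are per window, whereas a cytokine gene with several windows had more than 1 place for a match. No matches overlapped each other. They describe these letters only, and no binding was measured.

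The genes around the cytokines were described by lists of their pathways. Their counts stand beside 43.4% of all genes tested that were called against Parent (18.7% higher and 24.7% lower). Against NC-1 that share was 39.6% (18.4% higher and 21.2% lower). A list count near these shares is not a result about that list. Among 11 adaptors and kinases of the IL-1 receptor, 5 were lower with miR-4711-5p against Parent and 7 against NC-1, and none was higher. The median log2 fold changes were -0.13 and -0.27. NC-1 itself was higher than Parent in 4 of the 11 and lower in none, beside 12.1% higher and 15.1% lower of all genes tested. That count was smaller whenever 1 library was left out. IRAK2 was at 15.3 FPKM in Parent, 21.6 in NC-1 and 13.7 with miR-4711-5p. TOLLIP, which restrains IL-1 signaling, was at 21.6, 20.5 and 13.4 FPKM in the same order, and IRAK4, the kinase next to MYD88, at 6.72, 7.13 and 5.06 FPKM. IRAK4 lost its call against Parent without Parent 2 or miR-4711-5p 1. The count against Parent fell to 3 without Parent 2 or miR-4711-5p 1, and the call of IRAK2 against Parent (log2 fold change -0.15, adjusted p = 0.0419 by limma) was lost without any single library.

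Of 10 IL-1 family receptors and decoys, 6 were tested, with 2 higher and 1 lower against Parent and 2 higher and 2 lower against NC-1 (2 called in all without miR-4711-5p 2). The signaling receptor IL1R1 was at 1.13 FPKM in Parent, 1.84 in NC-1 and 3.08 with miR-4711-5p, and its calls were 0.94 against Parent (adjusted p = 0.00131 by limma) and 0.53 against NC-1 (adjusted p = 0.0164 by limma). The inhibitory receptor SIGIRR was at 20.4, 18.2 and 23.6 FPKM. IL1R1 lost its call against NC-1 without NC-1 1, miR-4711-5p 1 or miR-4711-5p 2, and SIGIRR against Parent without Parent 2, miR-4711-5p 1 or miR-4711-5p 2. Of the 6 other ligands of the family only IL37, an anti-inflammatory member, was tested, at 6.26, 7.05 and 4.04 FPKM (-0.53 against Parent, adjusted p = 0.0243, and -0.66 against NC-1, adjusted p = 0.0113, both by limma). It lost the call against Parent without Parent 1, Parent 2, miR-4711-5p 1 or miR-4711-5p 2 and that against NC-1 without miR-4711-5p 1.

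Of 14 genes for processing and release of IL-1 family cytokines, 11 were tested, with 1 higher and 3 lower against Parent and 2 higher and 2 lower against NC-1. AIM2, a DNA sensor of the inflammasome, rose from 5.82 FPKM in Parent and 5.39 in NC-1 to 13.0 with miR-4711-5p. PYCARD, the adaptor that links such sensors to caspase-1, fell from 31.3 and 34.8 FPKM in Parent and 26.6 and 30.7 in NC-1 to 15.8 and 16.1 with miR-4711-5p. CAPN1, a calpain subunit, was at 301, 236 and 212 FPKM, and its difference from NC-1 was lost under quantile normalization (adjusted p = 0.502 by limma) and without NC-1 1, NC-1 2, miR-4711-5p 1 or miR-4711-5p 2.

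On the IL-6 side, 6 of 8 receptor genes were tested, with 4 higher and none lower against Parent and 2 higher and 3 lower against NC-1. IL27RA, among the 4, was at 0.743 FPKM in Parent, 1.04 in NC-1 and 1.5 with miR-4711-5p. It passed the filter only through the miR-4711-5p libraries, so its part in the count is not independent support. LIFR, the receptor chain for LIF, rose from 4.34 FPKM in Parent and 4.48 in NC-1 to 7.63 with miR-4711-5p, and OSMR from 46.2 and 50.7 to 60.7 FPKM. IL6R, the receptor chain for IL-6, was at 6.88, 10.4 and 8.42 FPKM, higher than in Parent (adjusted p = 0.0126 by limma) and lower than in NC-1 (adjusted p = 0.01 by limma), and IL6ST was at 21.5, 29.2 and 21.6 FPKM. The receptor count against Parent fell to 2 without Parent 1 or miR-4711-5p 2 and that against NC-1 to 3 without NC-1 2 or miR-4711-5p 2. IL6R lost its call against Parent without Parent 1, miR-4711-5p 1 or miR-4711-5p 2 and that against NC-1 without NC-1 2 or miR-4711-5p 2. Of the 8 other ligands, 2 were tested: CLCF1 (17.7, 20.8 and 23.2 FPKM) was higher against Parent, and CTF1 (2.13, 1.45 and 2.12 FPKM) was higher against NC-1, a call that ended without NC-1 1, NC-1 2, miR-4711-5p 1 or miR-4711-5p 2.

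Among 9 genes of JAK-STAT3 signaling, 3 were higher against Parent and none lower, and 3 were higher and 2 lower against NC-1 (3 in all without NC-1 1, miR-4711-5p 1 or miR-4711-5p 2). JAK1 was at 43.7 and 43.6 FPKM in Parent, 51.1 and 50.9 in NC-1, and 56.4 and 57.1 with miR-4711-5p, with its call against NC-1 lost without NC-1 1 or NC-1 2. SOCS3, a feedback inhibitor that STAT3 induces, rose from 4.36 FPKM in Parent and 4.28 in NC-1 to 8.94 with miR-4711-5p (log2 fold change 0.90, adjusted p = 0.00288, and 0.93, adjusted p = 0.00284, by limma). Of 15 genes induced by STAT3, 9 were tested, with 6 higher and 1 lower against Parent and 3 higher and 1 lower against NC-1. SAA2, among the 6, was at 0.768 FPKM in Parent, 1.18 in NC-1 and 1.76 with miR-4711-5p. It passed the filter only through the miR-4711-5p libraries, so its part in the count is not independent support. ICAM1 is in this list and also in that of genes induced by IL-1 and TNF, so it counts in both. SAA1, an acute-phase protein, was at a mean of 3.16 FPKM in Parent, 5.02 in NC-1 and 9.72 with miR-4711-5p. Its NC-1 libraries, at 3.42 and 6.63 FPKM, overlapped those of Parent, at 2.75 and 3.57. The SAA1 call against NC-1 had adjusted p = 0.0207 by limma. LRG1, also an acute-phase protein, fell from 10.5 FPKM in Parent and 11.0 in NC-1 to 6.83 with miR-4711-5p. The STAT3 count against Parent fell to 4 without Parent 2 or miR-4711-5p 1, and that against NC-1 to 2 without NC-1 1 and to 1 without miR-4711-5p 1 or miR-4711-5p 2.

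The list of genes that IL-1 and TNF induce through NF-κB showed the widest changes. Of 18 genes, 16 were tested, and 15 were higher against Parent and 15 against NC-1 with none lower, with median log2 fold changes of 1.18 and 0.84. The neutrophil chemokine CXCL1 was at 8.39 FPKM in Parent, 13.3 in NC-1 and 94.4 with miR-4711-5p, CXCL3 at 1.69, 1.97 and 13.4 FPKM, and CXCL8 at 6.99, 15.9 and 64.1 FPKM. Between NC-1 and Parent, 9 of the 16 were called higher and none lower, beside 12.1% higher and 15.1% lower of all genes tested. Of 13 TNF relatives, receptors and shedding factors, 11 were tested, with 8 higher and none lower against Parent (5 without miR-4711-5p 2) and 5 higher and 1 lower against NC-1. The death ligand TNFSF10 was at 16.0, 8.93 and 25.4 FPKM, the adaptor TRAF1 at 5.43, 8.74 and 15.7 FPKM, and RHBDF2, which helps bring the TNF-releasing protease ADAM17 to the cell surface, at 8.16, 9.11 and 11.9 FPKM.

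All 12 RNA-binding proteins that act on cytokine mRNAs were tested, with 6 higher and none lower against Parent and 6 higher and 1 lower against NC-1 (4 in all without miR-4711-5p 1). ZC3H12A, a nuclease that degrades IL6 mRNA, rose from 15.9 FPKM in Parent and 23.0 in NC-1 to 35.5 with miR-4711-5p. ZFP36 was at 38.2, 41.1 and 50.8 FPKM, with its call against NC-1 lost without NC-1 1, and the silencing scaffold TNRC6A at 12.7 and 13.3 in Parent, 23.8 and 23.4 in NC-1, and 18.2 and 18.6 with miR-4711-5p. The lists were chosen with results of these libraries known, so that their counts are not independent evidence of a direction.

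**Figure D4:**
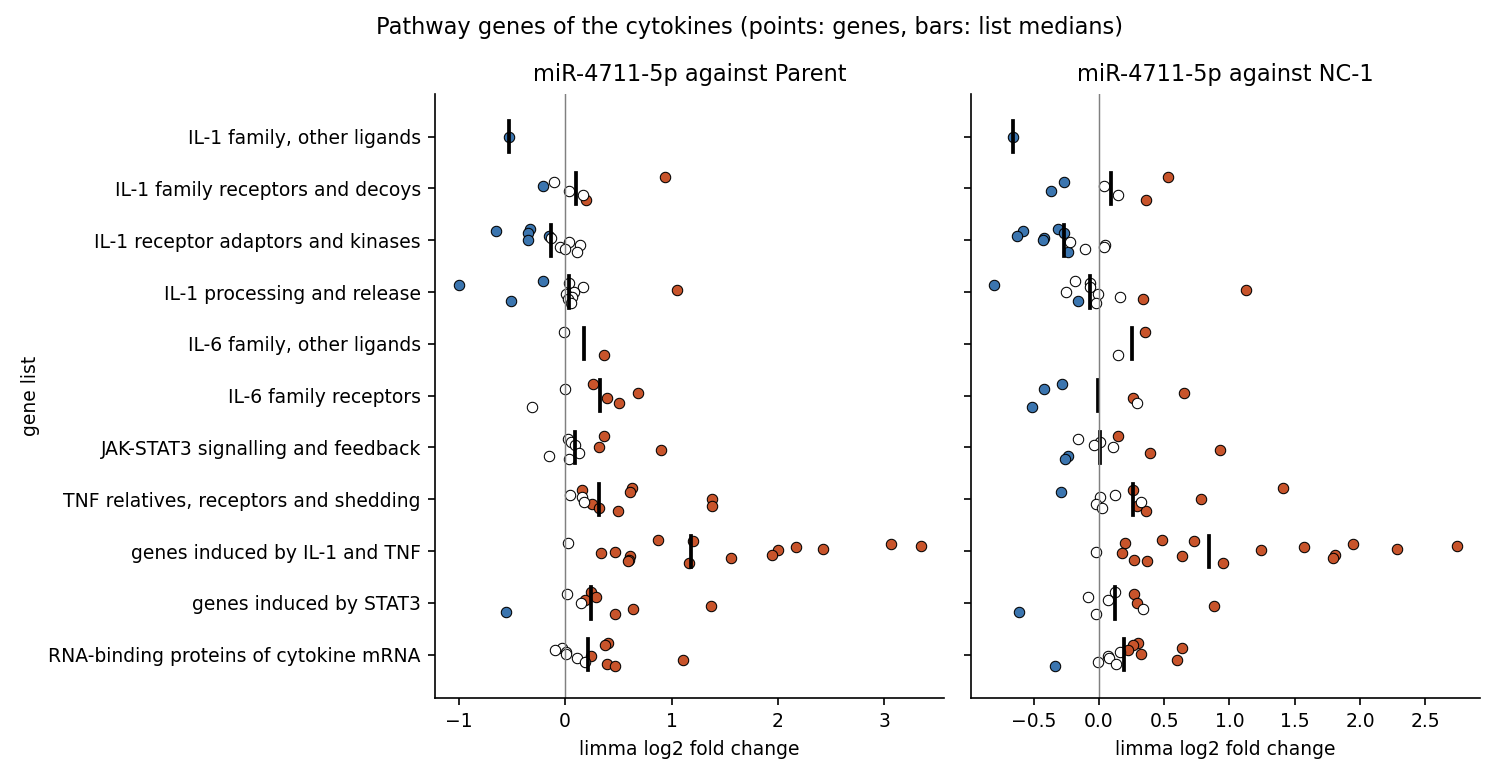
limma log2 fold changes (horizontal axes) of the tested genes in 11 pathway lists (rows), with miR-4711-5p against Parent on the left and against NC-1 on the right. Orange-red points are genes called higher, blue points genes called lower, open points genes not called, and black bars list medians; the list of genes induced by IL-1 and TNF has medians of 1.18 and 0.84, and the adaptors and kinases of the IL-1 receptor -0.13 and -0.27.

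The genes whose profile over the 6 libraries was most like that of each cytokine were found by the Euclidean distance of log2(FPKM + 1) values, each centered on its own mean, so that a smaller distance is a closer match. USP18 was closest to IL6, at a distance of 0.244, with 2.86 FPKM in Parent, 4.35 in NC-1 and 26.1 with miR-4711-5p, followed by IFI44L at 0.394 and CXCL3 at 0.474. For IL1RN they were FAM173B (0.0957), MET (0.0983) and ANKS6 (0.111), and MET was at 116 FPKM in Parent, 113 in NC-1 and 55.1 with miR-4711-5p. STC1 (0.288), SIRPB1 (0.312) and NIPAL4 (0.353) were closest to IL33, and PLK2 (0.0981), BISPR (0.11) and DTX3L (0.138) to LIF. FAM160B1, ELL2 and NCEH1 were closest to IL1A, TBC1D20, ZNF524 and ATP13A2 to IL1B, and E2F8, JAG2 and CDC6 to IL18. These likenesses rest on 6 libraries in 3 groups and are a description.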

How the data were processed

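RNA sequencing of BxPC-3 cells gave 6 libraries in 3 groups of 2. Per the methods and the submitters' processing notes, the authors prepared stranded mRNA libraries, mapped single-end reads to hg19 (TopHat2 2.1.1, Bowtie2 2.3.5.1 and SAMtools 1.2 in the notes, other versions in the methods) and deposited FPKM per gene symbol from the Cufflinks 2.2.1 suite. The annotation, strand setting and normalization option are not given in the sources used here. FPKM was normalized by the authors for gene length and library size, and no read counts were used here. Genes whose mean reached 1 FPKM (12040 of 26255) were tested on log2(FPKM + 1) with limma 3.58.1 in R 4.3.3 (eBayes with a trend, all 3 groups in 1 fit, 3 residual degrees of freedom, prior 4.15, two-sided, Benjamini-Hochberg adjustment over all genes, threshold 0.05), and the fit was tested on simulated data. Fold differences are ratios of mean FPKM. Sites and AU-rich motifs were searched in GENCODE transcripts on GRCh37, and promoters and the microRNA were taken from RefSeq (GRCh38.p14). For the gene lists, up to 3 genes were named by the largest log2 fold change against NC-1 among those called against both controls (the 2 with the highest mean FPKM where none was, which gave CLCF1 and CTF1), and GSDME was matched by its older symbol. IL6ST was named as well, after its values were seen, and IL27RA and SAA2 because they passed the filter only through the miR-4711-5p libraries. The 9 cytokine genes and all lists were chosen with earlier results of these data known. Alternatives were other pseudocounts, filters, scalings, variance priors and samples in the fit, a replicate block, a 1.5-fold requirement, and leaving out each library. Python 3.11.15, pandas 2.3.3 and matplotlib 3.10.9 were used.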

Additional observations from a re-analysis of the deposited data

How the results depend on the processing

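Of 333 values of the 7 tested cytokine genes under the alternatives, 301 kept their direction and side of the threshold, 30 kept the direction but lost the call, and 2 changed sign, both in differences from Parent that were not called: IL1B (-0.02 to 0.07 when 1 library was left out, negative without Parent 2) and IL33 (-0.17 to 0.08, positive without miR-4711-5p 1). Some alternatives could hardly move a value, so this tally is not a measure of robustness. The median-of-ratios factors were 0.999 to 1.01, and leaving out a library of a group outside the comparison keeps the fold change itself. The calls lost to a left-out library are given beside the genes. IL18 against NC-1 was also lost with no filter, with only the 2 groups compared in the fit and without a trend (adjusted p = 0.0564, 0.0514 and 0.0563 by limma), and IL6 between NC-1 and Parent with no filter, under quantile normalization and with only the 2 groups (adjusted p = 0.0597, 0.161 and 0.0806 by limma). The other losses came from the 1.5-fold requirement, and the cause of the rest was not tested. Among other named genes, uncalled differences that changed sign when 1 library was left out were, against Parent, CTF1 (-0.07 to 0.06, and 0.00 under median-of-ratios rescaling), TBC1D20 (-0.02 to 0.05), ZNF524 (-0.06 to 0.01) and ATP13A2 (-0.08 to 0.01, and 0.03 under quantile normalization), and, between NC-1 and Parent, IL37 (-0.11 to 0.36), TOLLIP (-0.15 to 0.01), AIM2 (-0.27 to 0.10), SOCS3 (-0.21 to 0.16), LRG1 (-0.03 to 0.16), ZFP36 (-0.00 to 0.20) and FAM173B (-0.04 to 0.09). Under quantile normalization LIFR (-0.01) and MET (0.04) also changed sign between NC-1 and Parent. With that requirement the cytokine genes called were 4 against NC-1 and 2 between NC-1 and Parent, and all genes called were 1486 against Parent, 1293 against NC-1 and 499 between NC-1 and Parent. With no filter 2165 genes were called between NC-1 and Parent. Leaving out 1 library gave 3164 to 5135 genes against Parent (fewest without miR-4711-5p 1), 2815 to 4639 against NC-1 (2815 without miR-4711-5p 1, 2991 without miR-4711-5p 2) and 1355 to 2296 between NC-1 and Parent (1355 without Parent 1, 2154 without Parent 2, 1591 without NC-1 1, 1944 without NC-1 2), where 3 to 5 cytokine genes were called (3 without NC-1 2), against 6 with all libraries. The log2 ratio of IL1RN to its agonists against Parent was -1.37, and -1.06 with IL1B alone and -1.71 with IL1A alone. Against NC-1 it was -1.08, and -0.84 and -1.33, and between NC-1 and Parent -0.29, and -0.38 with IL1A alone. Same-numbered libraries did not deviate together (correlations of deviations from the group means 0.061, 0.00301 and -0.00892). This cannot show whether they shared a culture or a preparation, which no source states. The replicate block gave 4983, 4564 and 2864 genes for miR-4711-5p against Parent, against NC-1, and NC-1 against Parent and changed no call of a cytokine gene. Read depth is unknown, which limits what the values of IL6 in the controls, IL11 and TNF can show.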
